A study of Mus musculus with 64 samples.

Results

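Collagen genes were analysed as a family in 2 fat depots, brown adipose tissue (BAT) and epididymal white fat (eWAT), of wild-type mice (WT) and of fat-specific *Nampt* knockout mice (FANKO). The members are the protein-coding genes whose mouse symbol reads Col, a number, the letter a and a number, such as *Col1a1*. The rule used names and no measured value, and it found 44 of the 52636 genes in the count table. They comprised 11 fibrillar collagens, 6 basement membrane collagens of type IV, 6 collagens of type VI, 9 fibril-associated collagens (FACIT), 2 multiplexins, 4 transmembrane collagens and 6 others. Of the 44, 36 had enough counts to be tested, and *Col2a1*, *Col9a1*, *Col9a2*, *Col11a1*, *Col19a1*, *Col24a1*, *Col25a1* and *Col26a1* did not.

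Collagens are the main structural proteins of the extracellular matrix. Their chains wind around each other into helical trimers, so genes whose products share a trimer have to be made together. Fibrillar collagens build the tensile fibers of connective tissue, and type IV collagen builds the sheet-like network of the basement membrane that surrounds every adipocyte and capillary. Type VI collagen forms beaded filaments between these structures and is an abundant matrix component of fat. Fibroblasts and adipocyte progenitors make most fibrillar collagen, whereas adipocytes, endothelial cells and mural cells also make type IV.

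FANKO mice carry the *Nampt* tm1Jtree allele, in which loxP sites flank exon 3, and Cre recombinase under the *Adiponectin* promoter, so *Nampt* is deleted in adipocytes and not by design in the other cells of the depot. Mice labeled wildtype come from the same cross, and the study used Cre-negative littermates as controls. All mice were males of 2 to 4 months, and depots were taken at zeitgeber time (ZT) 6 and 10 in the light phase and ZT 18 and 22 in the dark phase. With 4 samples at each time, every combination of depot and genotype had 16 samples, or 64 in all.

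For orientation, the 250 bases before the transcription start of 4 members are printed here, read 5′ to 3′ on the strand of the gene. *Col3a1* was the most abundant fibrillar collagen, *Col5a3* had the largest increase among the 12 most abundant members in FANKO BAT, and *Col27a1* and *Col28a1* were the members with a 24-h rhythm in WT BAT. The sequences are from RefSeq on GRCm38.p6, at chr1:45311288-45311537 (plus strand), chr9:20815068-20815317 (minus strand), chr4:63215162-63215411 (plus strand) and chr6:8192618-8192867 (minus strand). Capitals mark a match, on either strand, to the CCAAT box, to the TATA box spelled TATAAA, or to the GC box spelled GGGCGG, which reads CCGCCC when it lies on the other strand.
Col3a1: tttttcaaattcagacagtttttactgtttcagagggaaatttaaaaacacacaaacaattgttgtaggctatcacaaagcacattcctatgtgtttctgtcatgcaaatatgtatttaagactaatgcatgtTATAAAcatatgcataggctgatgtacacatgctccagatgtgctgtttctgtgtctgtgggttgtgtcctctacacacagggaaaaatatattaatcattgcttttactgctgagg
Col5a3: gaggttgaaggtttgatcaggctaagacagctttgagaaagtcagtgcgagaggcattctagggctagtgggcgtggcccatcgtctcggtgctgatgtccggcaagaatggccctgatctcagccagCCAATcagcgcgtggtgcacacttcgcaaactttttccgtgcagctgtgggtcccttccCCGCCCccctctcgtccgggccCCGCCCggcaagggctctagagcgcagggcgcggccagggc
Col27a1: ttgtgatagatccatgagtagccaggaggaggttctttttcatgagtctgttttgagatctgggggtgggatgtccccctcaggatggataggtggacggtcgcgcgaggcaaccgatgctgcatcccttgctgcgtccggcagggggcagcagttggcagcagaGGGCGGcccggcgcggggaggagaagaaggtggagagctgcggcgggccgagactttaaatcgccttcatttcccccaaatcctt
Col28a1: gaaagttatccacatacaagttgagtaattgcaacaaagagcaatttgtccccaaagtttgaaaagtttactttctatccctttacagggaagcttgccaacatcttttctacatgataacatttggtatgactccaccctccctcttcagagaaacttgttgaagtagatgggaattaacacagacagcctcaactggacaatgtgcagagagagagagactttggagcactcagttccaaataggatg
The *Col3a1* window holds TATAAA 117 bases before the start and is poor in G and C, at 35.2%. The *Col5a3* window holds CCAAT 122 bases before the start and GGGCGG at 63 and 41 bases, the *Col27a1* window holds GGGCGG at 85 bases, and the *Col28a1* window holds none of the motifs. Over the 38 windows found for 35 of the 44 members, CCAAT occurred in 13 (34.2%, against 33.8% of all 32817 windows), TATAAA in 5 (13.2% against 12.4%) and GGGCGG in 22 (57.9% against 32.7%). The member windows also held more G and C, with a median of 59% against 52.4% over all windows. The E-box, spelled CACGTG, and the D-box, spelled TTATGTAA, which clock-related factors can bind, were in 0 member windows, against 6.02% and 0.817% of all windows. At such shares, few of 38 windows would hold either motif. Of the 38, 20 were free of annotated exons. The *Col27a1* window lies downstream of the start of that gene in the GENCODE M21 annotation (63214004). The motif matches describe the letters of the windows only.

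Several members lie side by side in the genome (GRCm38, annotation GENCODE M21). *Col4a1* (chromosome 8, 11198423 to 11312826) and *Col4a2* (11312805 to 11449287) start head to head and overlap by 22 bp. *Col4a4* and *Col4a3* on chromosome 1 start head to head with 71 bp between them, and *Col4a6* and *Col4a5* on chromosome X with 1308 bp. *Col6a6*, *Col6a5* and *Col6a4* follow each other on the same strand of chromosome 9, with gaps of 27917 and 28810 bp.

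The libraries held between 6117343 and 30544847 counts, with a median of 15826651. *Nampt* itself, in counts per kilobase of exon after scaling to the depth of each library (FPKM), had a lowest, median and highest value of 94.7, 139 and 288 in WT BAT and 21.5, 28.4 and 36.8 in FANKO BAT. WT eWAT had 22.1, 29.6 and 61.3, and FANKO eWAT 19.9, 22.6 and 25.9. The groups were apart in BAT (log2 change -2.31 ± 0.07 SE, edgeR adjusted p = 1.09e-36) and overlapped in eWAT (-0.50 ± 0.07, edgeR adjusted p = 4.67e-09). These counts cover all exons of *Nampt* and all cells of the depot, whereas the deletion removes exon 3 in adipocytes. They therefore do not measure how complete the deletion was in either depot. The depot labels were checked on *Ucp1*, the brown fat uncoupling protein, with mean FPKM of 2797 in WT BAT and 0.336 in WT eWAT, and on *Lep*, the leptin gene, with 22.8 and 348. WT ZT 18 replicate 4 stood apart in both depots. It had the lowest value of the 16 WT samples for 17 of the 36 tested members in BAT and for 17 in eWAT, and its effect on the counts of members called is given beside them. FANKO ZT 18 replicate 1 was also the lowest of its group for 17 tested members in BAT and 12 in eWAT. Its fibrillar sum in BAT was 153 FPKM, against 163 in replicate 3 of that time. For the WT sample that sum was 18.6 FPKM, against at least 68.4 in the other 15. The FANKO sample was not left out on its own. Transcripts of the mitochondrial genome made up 25.9% of WT BAT counts and 14.4% of FANKO BAT counts on average, against 7.05% and 10.5% in eWAT, so the scaling of libraries bears on every direction given here.

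The depots differed in how much collagen mRNA they held and in its make-up. Summed over the 44 members, the collagen level was 248 ± 44.3 FPKM (mean ± SD, n = 16) in WT BAT and 943 ± 197 in WT eWAT. In FANKO mice the sums were 444 ± 78.4 in BAT and 524 ± 47.1 in eWAT. FANKO BAT therefore lay above WT BAT, and FANKO eWAT below WT eWAT, which brought the knockout depots closer to each other than the WT depots. Without WT ZT 18 replicate 4 the WT sums were 257 ± 30.3 in BAT and 980.3 ± 136 in eWAT.

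The make-up moved in BAT towards fibrillar collagen. Fibrillar collagen made up 33.6% of the summed FPKM in WT BAT and 50.5% in FANKO BAT, and type IV collagen 43.96% and 23.1%. Which class was the larger in WT BAT depends on the gene length used. With the longest transcript in place of the union of exons, the shares were 41.9% fibrillar and 37.0% type IV in WT BAT, against 58.6% and 18.2% in FANKO BAT. Per length of the exon union, the fibrillar sum was 85.6 ± 24.5 FPKM in WT and 225 ± 48.2 in FANKO BAT, while the type IV sum was 107 ± 11.3 and 101 ± 14.5. In eWAT both classes had lower sums in FANKO, 214 ± 25.9 against 378 ± 88.3 for fibrillar and 175 ± 17.3 against 298 ± 54.6 for type IV collagen, and their shares stayed near each other (39.8% and 40.7% fibrillar, 31.9% and 33.4% type IV).

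**Figure D1:**
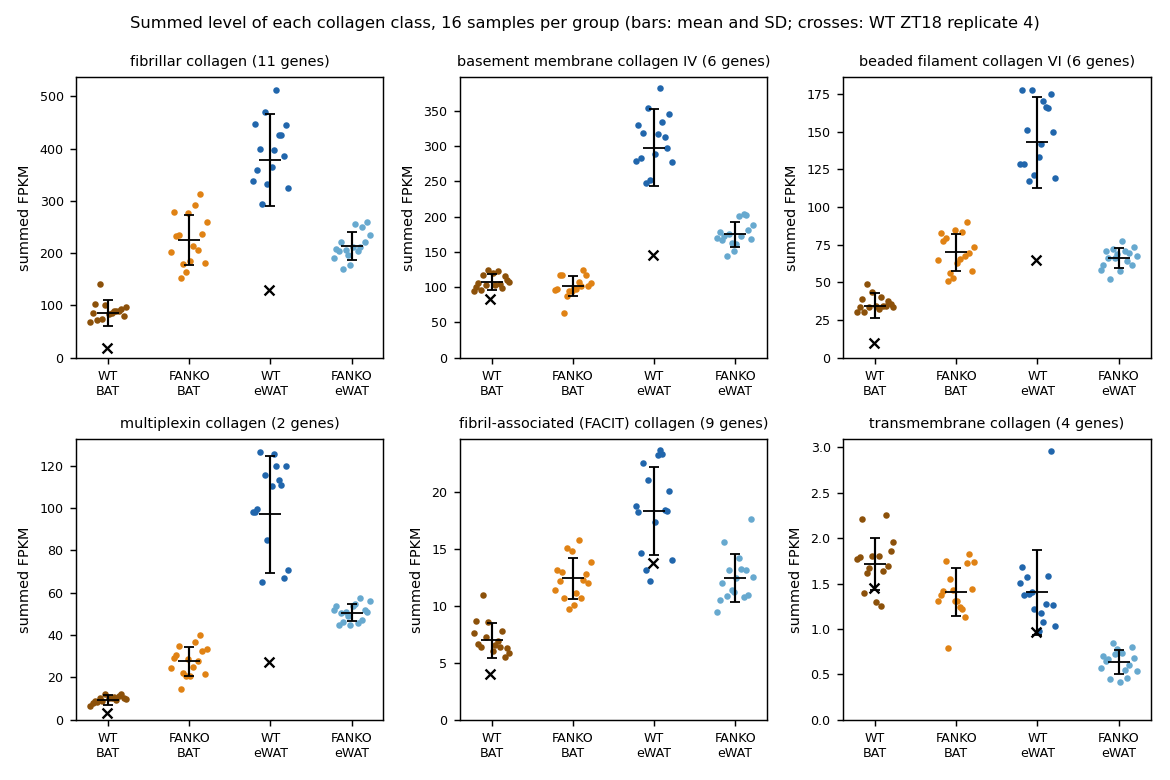
Summed FPKM of the collagen classes in each sample (points), with mean and SD of 16 samples per depot and genotype (bars). Fibrillar collagen runs from 18.6 to 141 in WT BAT and from 153 to 312 in FANKO BAT, whereas the type IV sums of the BAT groups overlap.

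FANKO BAT had more of most collagens than WT BAT, and FANKO eWAT had less than WT eWAT. In BAT, 21 of the 36 tested members were higher in FANKO, 7 were lower and 8 were not called (edgeR quasi-likelihood test, FDR below 0.01 over all 20249 genes tested). The median log2 change was 1.05, against 0.00 over all genes, of which 33.1% were called higher and 33.9% lower. In eWAT, 5 members were higher, 25 were lower and 6 were not called, with a median of -0.81 against -0.02 over all genes, of which 27.6% were called higher and 22.8% lower. Among the 24 members with a mean of at least 1 FPKM, 15 were higher and 4 lower in BAT, and 2 were higher and 20 lower in eWAT (1 and 19 without WT ZT 18 replicate 4). Without WT ZT 18 replicate 4 the counts were 22 and 7 in BAT and 4 and 25 in eWAT. In bulk tissue, fewer cells of a type and less RNA per cell cannot be told apart.

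These directions are relative to the average gene. With library size alone in place of TMM scaling, the median of all genes moved to 0.58 in BAT, and 84.9% of all calls were then higher, against 49.4% with TMM. The members then numbered 26 higher and 2 lower in BAT, with a median of 1.65. In eWAT the median of all genes moved to -0.27, 21.8% of calls were higher against 54.8%, and 4 members were higher and 26 lower.

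Directions in the depots often differed for the same gene, but the share of all genes with opposite calls was not counted. Over all genes, 33.1% were called higher and 33.9% lower in BAT, and 27.6% higher and 22.8% lower in eWAT. Of the 36, 15 rose in FANKO BAT and fell in FANKO eWAT, among them *Col1a1*, *Col1a2*, *Col3a1*, *Col5a1*, *Col5a2*, *Col6a1*, *Col6a2*, *Col6a3*, *Col15a1* and *Col18a1*. *Col12a1* and *Col27a1* did the reverse, although with library size alone neither was lower in BAT (log2 0.08 and 0.10). *Col7a1* and *Col9a3* rose in both depots, and *Col4a3*, *Col4a5*, *Col6a6* and *Col23a1* fell in both, although with library size alone *Col23a1* was not lower in BAT (0.20) and *Col4a5* was not called there (-0.10). *Col13a1* was the member not called in either depot. The BAT and eWAT comparisons use different samples, but the labels do not say whether the depots come from the same mice, so the comparisons may not be independent.

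**Figure D2:**
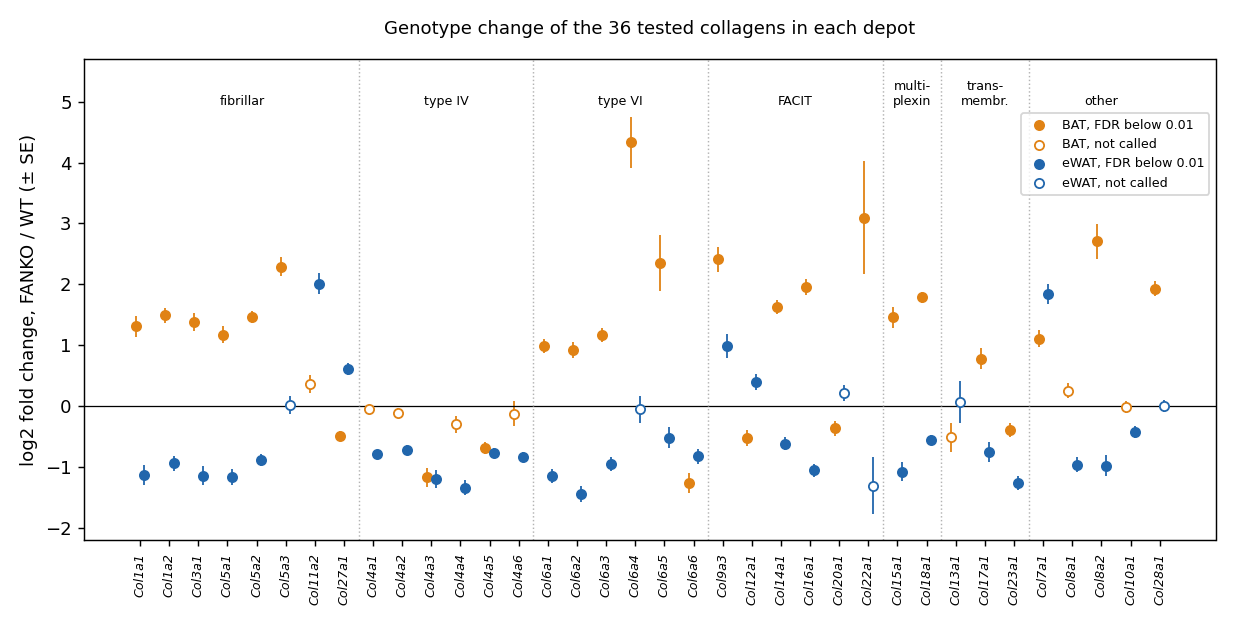
Log2 change of the tested collagens in FANKO against WT, in BAT and eWAT, with standard errors, grouped by class. Filled points pass an FDR of 0.01. Most fibrillar, type VI and multiplexin members lie above the line of no change in BAT (21 of 36 called higher in all classes). In eWAT most lie below it (25 called lower). With library size alone, *Col12a1*, *Col20a1*, *Col23a1* and *Col27a1* are not below it in BAT.

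Type I collagen is the main fibril-forming collagen of connective tissue and is a trimer of *Col1a1* and *Col1a2* chains. *Col1a1* had a lowest, median and highest level of 1.36, 11.97 and 20.2 FPKM in WT BAT and 13.9, 28.5 and 50.2 in FANKO BAT, and 15.7, 31.8 and 45.7 in WT eWAT and 10.2, 14.6 and 17.7 in FANKO eWAT. Most FANKO BAT samples, 13 of 16, were above every WT BAT sample, although the ranges overlapped. Its log2 change was 1.31 ± 0.17 (SE; edgeR adjusted p = 4.56e-10) in BAT and -1.14 ± 0.17 (edgeR adjusted p = 3.91e-08) in eWAT. *Col1a2* ran from 3.21, 11.01 and 19.8 FPKM (lowest, median and highest) in WT BAT to 21.1, 32.1 and 44.7 in FANKO BAT, without overlap. In eWAT it had 26.3, 44.6 and 61.5 in WT and 17.04, 23.8 and 30.2 in FANKO. The partner chains therefore moved alike, *Col1a2* by 1.49 ± 0.12 (edgeR adjusted p = 1.38e-16) in BAT and -0.94 ± 0.12 (edgeR adjusted p = 1.56e-09) in eWAT.

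Type III collagen, a homotrimer of *Col3a1* that forms fine reticular fibers with type I, was the most abundant fibrillar collagen. *Col3a1* had 5.33, 38.97 and 72.5 FPKM in WT BAT and 71.4, 94.4 and 143 in FANKO BAT, and 57.4, 182 and 253 in WT eWAT and 62.6, 79.5 and 109 in FANKO eWAT. The FANKO depots thus had like levels of a gene that differed between the WT depots by 4.56-fold. FANKO differed from WT by 1.38 ± 0.16 in BAT (edgeR adjusted p = 7.20e-12) and by -1.14 ± 0.15 in eWAT (edgeR adjusted p = 4.14e-09). Levels per length depend on the exons counted: with the longest transcript in place of the union of exons, *Col3a1* ranked above *Col4a1* as the most abundant collagen.

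Type V collagen is a minor partner that starts type I fibrils and limits their width. *Col5a1* had 1.26, 4.72 and 8.18 FPKM in WT BAT against 6.101, 10.95 and 14.9 in FANKO BAT, and 9.84, 29.4 and 40.8 in WT eWAT against 9.25, 11.96 and 16.6 in FANKO eWAT. *Col5a2* had 2.396, 4.75 and 6.48, 8.72, 12.7 and 19.3, 11.9, 26.5 and 38.5 and 12.1, 14.2 and 17.6 in the same order. Like type I, they rose in FANKO BAT (1.17 ± 0.14 for *Col5a1* and 1.46 ± 0.10 for *Col5a2*) and fell in FANKO eWAT (-1.17 ± 0.13 and -0.88 ± 0.10, highest of these edgeR adjusted p values 2.26e-11). *Col5a3*, the chain of the less common heterotrimer, parted from them. It had 1.58, 6.55 and 10.95 FPKM in WT BAT and 19.6, 32.5 and 44.2 in FANKO BAT, with no overlap, and 8.68, 65.4 and 106 in WT eWAT and 47.6, 70.6 and 85.1 in FANKO eWAT. Its BAT change of 2.29 ± 0.16 (edgeR adjusted p = 1.39e-19) was the largest among the 12 most abundant collagens, and in eWAT it was not called (0.02 ± 0.15, edgeR adjusted p = 0.928).

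The remaining tested fibrillar collagens were scarce and ran another way. *Col11a2*, a chain of cartilage type XI collagen, had 0.026002, 0.0876 and 0.168 FPKM in WT eWAT and 0.207, 0.378 and 0.6196 in FANKO eWAT, without overlap. Its log2 change there was 2.01 ± 0.18 (edgeR adjusted p = 6.12e-15), and in BAT, with 0.235, 0.603 and 1.19 in WT and 0.553, 0.812 and 1.24 in FANKO, it was not called (0.36 ± 0.15, adjusted p = 0.0256 by edgeR) but was called without WT ZT 18 replicate 4 (0.46, edgeR adjusted p = 0.00242). *Col27a1*, a fibrillar collagen best known from cartilage, had 2.37, 6.26 and 9.37 FPKM in WT BAT and 2.94, 4.18 and 6.14 in FANKO BAT, and 0.251, 0.361 and 0.456 in WT eWAT and 0.3798, 0.5295 and 0.759 in FANKO eWAT. It fell in BAT (log2 change -0.49, edgeR adjusted p = 4.60e-07, log2 0.10 with library size alone) and rose in eWAT (0.60, edgeR adjusted p = 7.99e-07).

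**Figure D3:**
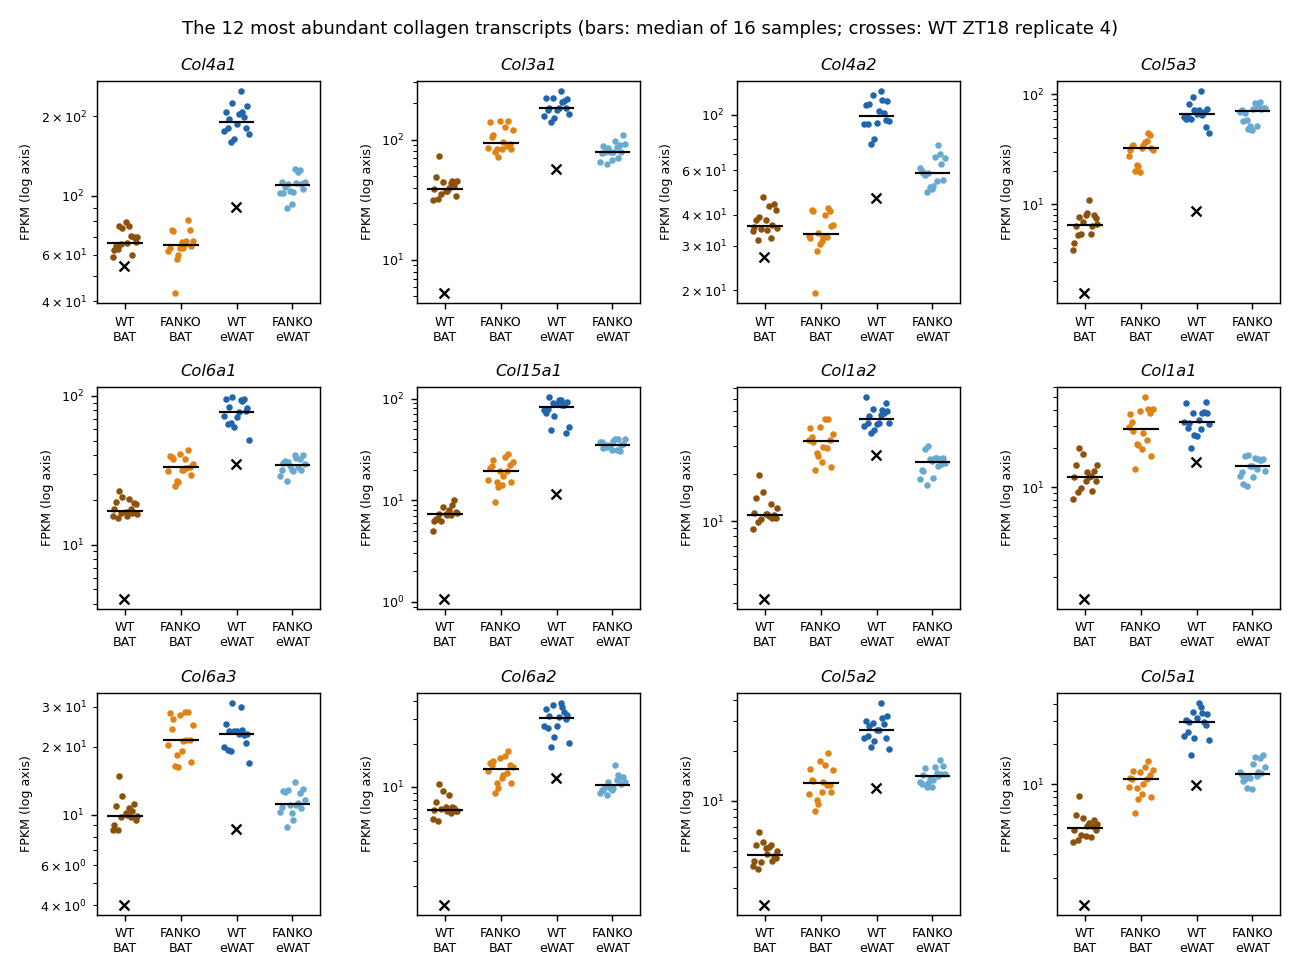
FPKM of the 12 most abundant collagens in each of the 64 samples, by depot and genotype, with the median of 16 samples per group, on a log axis. For the fibrillar and type VI chains and *Col15a1*, FANKO BAT lies above WT BAT and, except *Col5a3*, FANKO eWAT lies below WT eWAT. For *Col4a1* and *Col4a2* the BAT genotypes overlap.

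Relative to the average gene, type IV collagen did not share the BAT increase. None of its 6 chains was called higher in FANKO BAT, 2 were lower and 4 were not called, and all 6 were lower in FANKO eWAT. Of all genes, 33.1% were called higher and 33.9% lower in BAT, so the share of lower chains there is near that of all genes. In eWAT 27.6% of all genes were called higher and 22.8% lower. *Col4a1* and *Col4a2* form the common basement membrane trimer. *Col4a1* had a lowest, median and highest level of 54.4, 66.4 and 79.4 FPKM in WT BAT against 43.01, 65.01 and 80.9 in FANKO BAT, and 90.8, 191 and 248 in WT eWAT against 89.8, 109 and 126 in FANKO eWAT. *Col4a2* had 26.97, 36.1 and 47.2, 19.5, 33.3 and 42.5, 46.4, 98.9 and 124 and 49.1, 58.7 and 76.1. In BAT their log2 changes were -0.05 ± 0.07 and -0.11 ± 0.08 (edgeR adjusted p = 0.535 and 0.206), and with library size alone they were 0.55 and 0.49, about the shift of the median gene, and were then called. In eWAT their changes were -0.79 ± 0.07 and -0.72 ± 0.08 (edgeR adjusted p = 2.90e-15 and 2.93e-11).

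The minor type IV chains replace the common trimer in specialised membranes such as those of the kidney and smooth muscle. *Col4a3* had 0.253, 0.373 and 0.478 FPKM in WT BAT and 0.0474, 0.191 and 0.263 in FANKO BAT, and 0.4399, 0.646 and 2.397 in WT eWAT and 0.228, 0.307 and 0.4002 in FANKO eWAT. It fell in both, with a log2 change of -1.17 ± 0.16 in BAT (edgeR adjusted p = 1.96e-09) and -1.20 ± 0.14 in eWAT (edgeR adjusted p = 1.08e-10), and the eWAT groups did not overlap. Part of its exons, 563 bp, lies on the opposite strand of *C430014B12Rik*, and the strand setting of the counting is not given in the sources used here. Its head-to-head neighbor *Col4a4* had 0.565, 1.16 and 3.899 FPKM in WT eWAT and 0.296, 0.494 and 0.671 in FANKO eWAT (-1.34 ± 0.12, edgeR adjusted p = 2.80e-14) and was not called in BAT (-0.30 ± 0.14).

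*Col4a5* and *Col4a6*, the neighbors on the X chromosome, were far apart in depot. *Col4a5* had 0.748, 1.28 and 1.96 FPKM in WT BAT against 0.528, 0.774 and 1.12 in FANKO BAT, and 4.71, 7.002 and 11.6 in WT eWAT against 3.16, 4.14 and 4.94 in FANKO eWAT. *Col4a6* had 0.0178, 0.0627 and 0.09299, 0.0178, 0.0486 and 0.0922, 2.07, 2.78 and 3.78 and 0.979, 1.61 and 2.205, so that every BAT sample lay below every eWAT sample of either genotype. *Col4a5* was lower in FANKO in both depots (-0.69 ± 0.10 in BAT and -0.77 ± 0.08 in eWAT, edgeR adjusted p = 1.11e-08 and 8.17e-12), although the BAT call ended with library size alone (-0.10, edgeR adjusted p = 0.39), and *Col4a6* was lower in eWAT (-0.83 ± 0.08, edgeR adjusted p = 8.24e-13).

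Type VI collagen is assembled from *Col6a1*, *Col6a2* and a further chain, usually *Col6a3*, whose cleaved end is the peptide endotrophin. *Col6a1* had 4.33, 16.9 and 23.05 FPKM in WT BAT against 24.8, 33.2 and 43.4 in FANKO BAT, and 34.6, 78.5 and 98.2 in WT eWAT against 26.8, 34.3 and 40.2 in FANKO eWAT. *Col6a2* had 1.47, 6.85 and 10.4, 9.01, 13.3 and 17.8, 11.4, 30.5 and 38.8 and 8.71, 10.2 and 14.1, and *Col6a3* had 4.02, 9.93 and 14.9, 16.2, 21.3 and 28.5, 8.64, 22.7 and 31.1 and 8.82, 11.2 and 14.02. In BAT the ranges of *Col6a1* and *Col6a3* did not overlap between genotypes. The BAT increases were 0.99 ± 0.12, 0.92 ± 0.13 and 1.17 ± 0.11, and the eWAT decreases were -1.16 ± 0.12, -1.45 ± 0.13 and -0.95 ± 0.11 (log2; highest edgeR adjusted p 5.12e-09). The decrease of *Col6a2* was the largest of any collagen in eWAT.

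The alternative type VI chains *Col6a4*, *Col6a5* and *Col6a6* can take the place of *Col6a3*, and each had its own pattern. *Col6a4* had 4 counts in all of WT BAT, in 4 of 16 libraries, and 128 in FANKO BAT, a ratio of 23.5 per scaled library with an exact 95% interval of 8.96 to 87.6, which covers counting error only. Its fitted log2 change of 4.33 ± 0.42 (edgeR adjusted p = 6.35e-14) rests on those few counts, and in eWAT it was not called (-0.05 ± 0.23). *Col6a5* was an eWAT gene, with 3.47, 8.25 and 37.02 FPKM in WT and 4.58, 6.44 and 13.4 in FANKO eWAT, against 0, 0.0323 and 0.089999 in WT and 0.0647, 0.124 and 0.426 in FANKO BAT. It rose in BAT (2.35 ± 0.46, edgeR adjusted p = 8.46e-06), and its decrease in eWAT (-0.52 ± 0.17, edgeR adjusted p = 0.00604) was lost without WT ZT 18 replicate 4 (-0.49, edgeR adjusted p = 0.0103). *Col6a6* had 0.2002, 0.547 and 0.812 FPKM in WT BAT against 0.112, 0.218 and 0.426 in FANKO BAT, and 2.197, 4.82 and 8.86 in WT eWAT against 1.91, 2.76 and 3.92 in FANKO eWAT. It had the largest decrease of any collagen in FANKO BAT (-1.27 ± 0.17, edgeR adjusted p = 8.27e-10) and also fell in eWAT (-0.83 ± 0.12, edgeR adjusted p = 3.11e-08).

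The multiplexins *Col15a1* and *Col18a1* sit at the outer face of basement membranes, and the end of *Col18a1* is released as endostatin. *Col15a1*, the most abundant collagen outside the fibrillar, IV and VI types, had 1.07, 7.28 and 10.1 FPKM in WT BAT against 9.603, 19.4 and 28.2 in FANKO BAT, and 11.5, 82.2 and 103 in WT eWAT against 30.8, 35.1 and 40.2 in FANKO eWAT. *Col18a1* had 1.59, 2.51 and 3.74, 5.14, 8.61 and 11.8, 15.6, 22.4 and 28.3 and 12.3, 15.4 and 17.2. Unlike type IV, both rose in FANKO BAT (1.46 ± 0.17 and 1.79 ± 0.08, edgeR adjusted p = 1.29e-11 and 1.51e-27) and the BAT groups of *Col18a1* did not overlap. Both fell in FANKO eWAT (-1.08 ± 0.16 and -0.55 ± 0.08, edgeR adjusted p = 6.29e-08 and 1.27e-08).

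FACIT collagens lie on the surface of fibrils and link them to other matrix. *Col14a1*, typical of quiescent fibrils, had 1.11, 2.07 and 4.38 FPKM in WT BAT and 5.04, 6.96 and 9.802 in FANKO BAT, without overlap, and 7.88, 12.2 and 16.8 in WT eWAT and 5.72, 7.89 and 12.5 in FANKO eWAT. *Col16a1* had 0.233, 0.463 and 0.625, 0.854, 1.86 and 3.003, 2.59, 4.35 and 5.699 and 1.55, 2.01 and 3.01. They rose in BAT (1.63 ± 0.12 and 1.95 ± 0.13) and fell in eWAT (-0.62 ± 0.11 and -1.05 ± 0.11; highest edgeR adjusted p 4.18e-06). *Col12a1*, a FACIT of tissue under load, had 1.49, 2.93 and 5.41 FPKM in WT BAT against 1.46, 1.98 and 3.23 in FANKO BAT, and 0.705, 1.33 and 1.92 in WT eWAT against 1.101, 1.67 and 2.41 in FANKO eWAT. It fell in BAT (-0.52 ± 0.13, edgeR adjusted p = 2.87e-04, but 0.08 with library size alone) and rose in eWAT (0.39 ± 0.13, edgeR adjusted p = 0.00797), and the eWAT call was lost without WT ZT 18 replicate 4 (0.36, edgeR adjusted p = 0.0109).

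The scarcer FACIT members varied. *Col9a3*, a chain of cartilage type IX collagen, had 0, 0.1104 and 0.249 FPKM in WT BAT and 0.259, 0.557 and 0.793 in FANKO BAT, without overlap, and 0.0618, 0.117 and 0.27001 in WT eWAT and 0.127, 0.229 and 0.4096 in FANKO eWAT. It rose in both depots (2.41 ± 0.20 and 0.99 ± 0.20, edgeR adjusted p = 2.85e-16 and 1.66e-05), and 234 bp of its exons overlap *Tcfl5* on the opposite strand. *Col20a1* had 0.519, 0.878 and 1.32 FPKM in WT BAT and 0.406, 0.694 and 1.16 in FANKO BAT, and 0.217, 0.376 and 0.651 in WT eWAT and 0.225, 0.386 and 0.921 in FANKO eWAT. It was lower in FANKO BAT (-0.37 ± 0.12, edgeR adjusted p = 0.00682, 0.24 with library size alone) and not called in eWAT. *Col22a1*, found at tissue junctions, had 2 counts in all 16 WT BAT libraries and 39 in FANKO BAT, a ratio of 14.3 per scaled library with an exact 95% interval of 3.71 to 123, and its call in BAT (fitted log2 3.09 ± 0.93, edgeR adjusted p = 0.00247) rests on those counts.

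The transmembrane collagens and the short-chain and other collagens made up little of the collagen mRNA. *Col8a1* and *Col8a2* form the hexagonal networks of vessel walls. *Col8a1* had 0.759, 1.43 and 1.79 FPKM in WT BAT against 1.15, 1.56 and 2.52 in FANKO BAT, and 1.22, 2.62 and 3.67 in WT eWAT against 0.797, 1.298 and 1.76 in FANKO eWAT, and *Col8a2* had 0, 0.0349 and 0.0909, 0.126, 0.266 and 0.596, 0.756, 1.07 and 4.34 and 0.476, 0.638 and 0.962. *Col8a2* rose in BAT without overlap (2.70 ± 0.28, edgeR adjusted p = 5.78e-13) from 41 counts in WT, whereas *Col8a1* was not called there (0.25 ± 0.13), and both fell in eWAT (-0.98 ± 0.17 and -0.97 ± 0.12, edgeR adjusted p = 1.93e-06 and 1.02e-09). *Col7a1*, which anchors epithelium to the matrix below, had 0.1297, 0.284 and 0.565 FPKM in WT BAT against 0.343, 0.718 and 1.16 in FANKO BAT, and 0.0261, 0.0729 and 0.145 in WT eWAT against 0.1401, 0.257 and 0.454 in FANKO eWAT, and rose in both depots (1.11 ± 0.14 and 1.84 ± 0.17, edgeR adjusted p = 6.72e-10 and 1.29e-14).

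*Col28a1*, a collagen with von Willebrand factor domains known from peripheral nerve, had 0.159, 0.369 and 0.766 FPKM in WT BAT and 1.05, 1.37 and 2.08 in FANKO BAT, without overlap (1.93 ± 0.13, edgeR adjusted p = 6.66e-21). In eWAT it had 1.08, 2.04 and 3.59 and 1.27, 2.01 and 3.47 and was not called (-0.00 ± 0.10). *Col10a1*, the collagen of hypertrophic cartilage, had means between 0.903 and 1.31 FPKM in the 4 depot and genotype combinations. It was lower in FANKO eWAT (-0.43 ± 0.10, edgeR adjusted p = 1.70e-04) and not called in BAT (-0.01 ± 0.10). Of the transmembrane collagens, *Col23a1* had 0.709, 1.07 and 2.35 FPKM in WT eWAT and 0.332, 0.462 and 0.674 in FANKO eWAT, without overlap (-1.27 ± 0.12, edgeR adjusted p = 2.72e-14). *Col17a1*, a component of hemidesmosomes, rose in FANKO BAT (0.78 ± 0.17) and fell in FANKO eWAT (-0.75 ± 0.16), at mean levels of 0.113 FPKM in WT and 0.196 in FANKO for BAT, and 0.208 in WT and 0.118 in FANKO for eWAT. *Col13a1* had 0.254, 0.533 and 0.683 FPKM in WT BAT and 0.164, 0.366 and 0.541 in FANKO BAT, and it was listed at or near 0 in eWAT, with medians of 0.0280 in WT and 0.0446 in FANKO.

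Between the WT depots, BAT had less of most collagens than eWAT. In WT, 27 of the 36 tested members were lower in BAT, 6 were higher and 3 were not called, with a median log2 difference of -2.01 (-0.11 over all genes, of which 32.7% were called higher and 41.1% lower). With library size alone, 13.7% of all calls were higher in place of 44.3%, the median gene moved to -0.86, and 6 members were higher and 30 lower. Without WT ZT 18 replicate 4 the counts were 6 higher and 27 lower. The largest deficits were *Col6a5* (-8.33 ± 0.30), *Col22a1* (-4.95 ± 0.78), *Col4a6* (-5.63 ± 0.13) and *Col8a2* (-4.82 ± 0.25), with edgeR adjusted p values up to 7.33e-08. That of *Col22a1* rests on 2 counts in WT BAT and 210 in WT eWAT, a ratio of 65.1 with an exact 95% interval of 17.8 to 541. Its highest WT eWAT library had 0.590 FPKM, against a median of 0.0313 in the 15 libraries other than ZT 18 replicate 4. The members higher in BAT were *Col27a1* (4.06 ± 0.10), *Col13a1* (3.38 ± 0.29), *Col11a2* (2.84 ± 0.17), *Col7a1* (2.08 ± 0.17), *Col20a1* (1.31 ± 0.13) and *Col12a1* (1.21 ± 0.13). Among the abundant chains the WT depot differences ran from -3.37 for *Col5a3* and -3.43 for *Col15a1* to -1.14 for *Col6a3*.

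In FANKO the depots were less far apart. There, 13 members were higher in BAT, 13 were lower and 10 were not called, and the median difference was -0.12 (-0.01 over all genes, of which 28.1% were called higher and 31.6% lower). Without WT ZT 18 replicate 4 the counts were 15 and 13, with *Col3a1* and *Col6a2* added to those higher in BAT. Type I chains were now higher in BAT (1.03 ± 0.17 for *Col1a1* and 0.45 ± 0.12 for *Col1a2*, edgeR adjusted p = 2.13e-07 and 8.61e-04), as was *Col6a3* (0.97 ± 0.11). All 6 type IV chains stayed lower in BAT, from -4.92 for *Col4a6* to -0.53 for *Col4a4*, as did *Col6a5* (-5.47), *Col6a6* (-3.64) and both multiplexins. *Col27a1* (2.96 ± 0.10), *Col13a1* (2.79 ± 0.30) and *Col7a1* (1.35 ± 0.14) kept the largest excess in BAT. The comparisons of depots and of genotypes share samples, so their values are set side by side and not counted as separate evidence.

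The genotype effect itself was tested for a difference between the depots. It was higher in BAT than in eWAT for 27 of the 36 tested members, lower for 5 and not called for 4, with a median difference of 1.73 (0.04 over all genes, of which 32.2% were called higher and 32.1% lower). With library size alone, 89.7% of all calls were higher in place of 50.03%, the median gene moved to 0.88 and that of the members to 2.58. Without WT ZT 18 replicate 4 the counts were again 27 and 5. The differences of the fibrillar chains *Col1a1*, *Col1a2*, *Col3a1*, *Col5a1*, *Col5a2* and *Col5a3* lay close together, from 2.27 ± 0.22 for *Col5a3* to 2.52 ± 0.22 for *Col3a1*. The type IV chains *Col4a1* and *Col4a2* differed by 0.74 ± 0.10 and 0.60 ± 0.11, and *Col16a1* and *Col8a2* by 3.00 ± 0.17 and 3.68 ± 0.33 (highest of these edgeR adjusted p values 4.97e-06). The members with a lower effect in BAT were *Col11a2* (-1.65 ± 0.23), *Col27a1* (-1.10 ± 0.13), *Col12a1* (-0.92 ± 0.18), *Col7a1* (-0.73 ± 0.22, 0.11 with library size alone) and *Col20a1* (-0.58 ± 0.18, 0.27 with library size alone).

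Ratios between chains of the same trimer do not depend on the scaling of libraries, and they were computed per length in each sample, without a test. *Col4a1* to *Col4a2* was near the same value throughout, at 1.84 ± 0.191 (mean ± SD) in WT BAT against 1.92 ± 0.157 in FANKO BAT, and 1.93 ± 0.0915 in WT eWAT against 1.84 ± 0.127 in FANKO eWAT. *Col1a1* to *Col1a2* was 1.01 ± 0.192, 0.909 ± 0.133, 0.706 ± 0.0838 and 0.6199 ± 0.05702, higher in BAT than in eWAT. WT ZT 18 replicate 4 of BAT was far below the others, at 0.423. *Col6a3* to *Col6a2* was 1.51 ± 0.338, 1.703 ± 0.104, 0.782 ± 0.111 and 1.09 ± 0.111. The type V ratio moved with genotype in both depots, *Col5a3* to *Col5a1* being 1.38 ± 0.3403 in WT BAT and 2.999 ± 0.598 in FANKO BAT, and 2.31 ± 0.634 and 5.37 ± 0.683 in eWAT. WT eWAT had a lowest, median and highest ratio of 0.882, 2.27 and 3.54, against 4.11, 5.42 and 6.19 for FANKO eWAT, so the genotypes did not overlap. *Col8a1* to *Col8a2* was 2.16 ± 0.906 in WT eWAT and 1.93 ± 0.528 in FANKO eWAT. In BAT it was 33.3 ± 16.9 in WT (14 samples with a count of *Col8a2*) and 5.902 ± 2.15 in FANKO, where the WT value rests on the 41 counts of *Col8a2*.

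**Figure D4:**
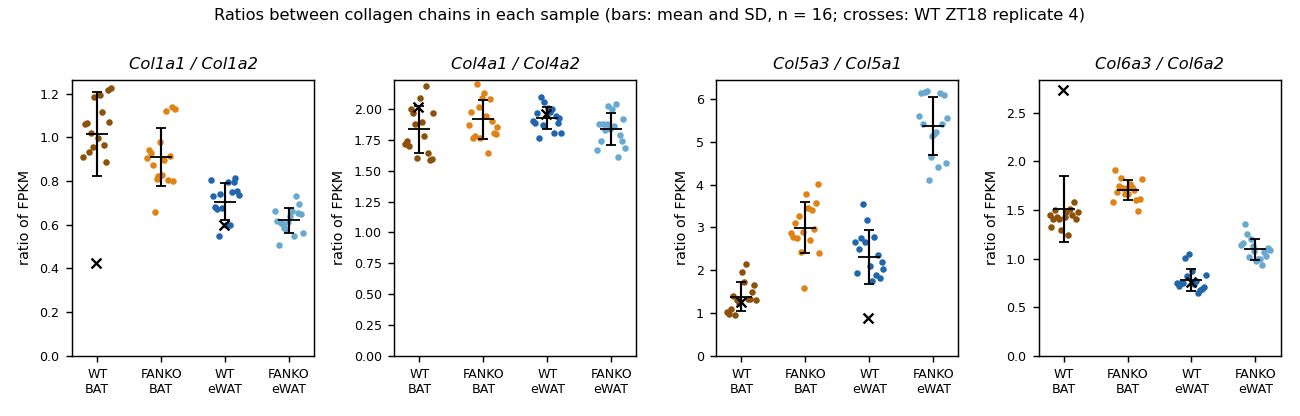
Ratios of FPKM between collagen chains in each sample (points), with mean and SD of 16 samples per group (bars), and crosses for WT ZT 18 replicate 4. *Col4a1* to *Col4a2* is near 1.9 in every group, and *Col5a3* to *Col5a1* in eWAT runs from 0.882 to 3.54 in WT and from 4.11 to 6.19 in FANKO.

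Calls of a 24-h rhythm were few among the collagens, and in eWAT their share was near that of all genes. A 24-h rhythm was called for 2 of the 36 tested members in WT BAT (13.9% of all genes) and for 0 in FANKO BAT (2.84%). In eWAT it was called for 4 members in WT (9.38%) and for 2 in FANKO (6.77%). Without WT ZT 18 replicate 4 the BAT numbers were 3 and 2, and those in eWAT 2 and 2. In FANKO BAT, 11 members had an unadjusted edgeR p under 0.05, but the share of all genes at that threshold was not counted. DESeq2 and limma-voom also called 0 members there. The abundant chains, *Col1a1*, *Col1a2*, *Col3a1*, *Col4a1*, *Col4a2*, *Col6a1*, *Col6a2* and *Col6a3*, were not among the calls. With 4 time points, amplitude was taken as the difference between the highest and the lowest time-point mean on the log2 scale.

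*Col28a1* was called in 3 of the 4 combinations, each time with its highest mean at ZT 18. In WT BAT the 4 samples had 0.1601, 0.2601, 0.271 and 0.326 FPKM at ZT 6, 0.159, 0.2303, 0.345 and 0.405 at ZT 10, 0.4997, 0.576, 0.749 and 0.766 at ZT 18 and 0.205, 0.393, 0.463 and 0.576 at ZT 22. All samples at ZT 18 were above those at ZT 6 and ZT 10 (amplitude 1.28 ± 0.24 SE, edgeR adjusted p = 2.55e-04, called under 13 of 16 settings). The highest value at ZT 18, 0.766, was that of replicate 4, the WT sample that stood apart. In WT eWAT they had 1.08, 1.48, 2.07 and 2.51, 1.36, 1.36, 1.74 and 1.901, 1.81, 2.44, 2.69 and 3.59 and 2.02, 2.63, 2.76 and 2.79, which overlap more (0.69 ± 0.24, edgeR adjusted p = 0.00549, called under 8 of 16 settings). The value of 3.59 was again WT ZT 18 replicate 4. In FANKO eWAT they had 1.27, 1.48, 1.65 and 1.69, 1.58, 1.699, 1.81 and 1.94, 2.51, 2.93, 2.93 and 3.47 and 2.08, 2.48, 2.49 and 2.69 (0.95 ± 0.13, edgeR adjusted p = 4.97e-04, called under 14 of 16). In FANKO BAT the edgeR adjusted p was 0.87, and a difference of rhythm between genotypes was not called for it in either depot.

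*Col27a1* was called in WT BAT, where its samples had 6.61, 7.13, 7.23 and 7.72 FPKM at ZT 6, 6.23, 7.11, 7.15 and 9.37 at ZT 10, 2.37, 4.34, 4.951 and 5.56 at ZT 18 and 4.33, 6.01, 6.23 and 6.29 at ZT 22. The light-phase samples were all above those at ZT 18 (0.85 ± 0.30, edgeR adjusted p = 6.48e-04, called under 15 of 16 settings). The lowest value, 2.37, was that of WT ZT 18 replicate 4. *Col20a1* was called in FANKO eWAT under all 16 settings, with 0.284, 0.329, 0.348 and 0.391 FPKM at ZT 6, 0.225, 0.233, 0.265 and 0.3498 at ZT 10, 0.381, 0.596, 0.736 and 0.811 at ZT 18 and 0.464, 0.509, 0.5604 and 0.921 at ZT 22 (1.13 ± 0.27, edgeR adjusted p = 2.18e-04). It was the 1 member whose rhythm differed between genotypes in eWAT (1.15% of all genes; edgeR adjusted p = 0.00948, called under 6 of 16 settings). In BAT the rhythm difference was called for 0 members by edgeR (2.76% of all genes), for 0 by limma-voom and for 1 by DESeq2. At an unadjusted edgeR p under 0.05 there were 5 members, with the share of all genes not counted.

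The other WT eWAT calls, *Col4a3*, *Col4a4* and *Col6a5*, had their highest means at ZT 6, where WT eWAT ZT 6 replicate 2 held the highest value. They were called under 10, 15 and 12 of 16 settings. *Col4a4* had 1.28, 1.39, 1.49 and 3.899 FPKM at ZT 6, 0.977, 1.15, 1.16 and 1.197 at ZT 10, 0.565, 0.787, 1.0997 and 1.16 at ZT 18 and 0.919, 1.08, 1.31 and 1.39 at ZT 22 (1.04 ± 0.44, edgeR adjusted p = 3.91e-04). The highest value at ZT 6 was that library, which was above all other WT eWAT samples for 9 of the 36 tested members, with 2.40 FPKM of *Col4a3* against at most 0.876 and 37.0 of *Col6a5* against at most 22.3. It also had the lowest summed mesothelial markers of WT eWAT, 51.3 FPKM, and the part of tissue make-up in its values was not tested. Without replicate 2 of every group, the 4 rhythm calls of WT eWAT became 0, that of *Col28a1* included. That fit had fewer samples in every group, so it does not single out this library.

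**Figure D5:**
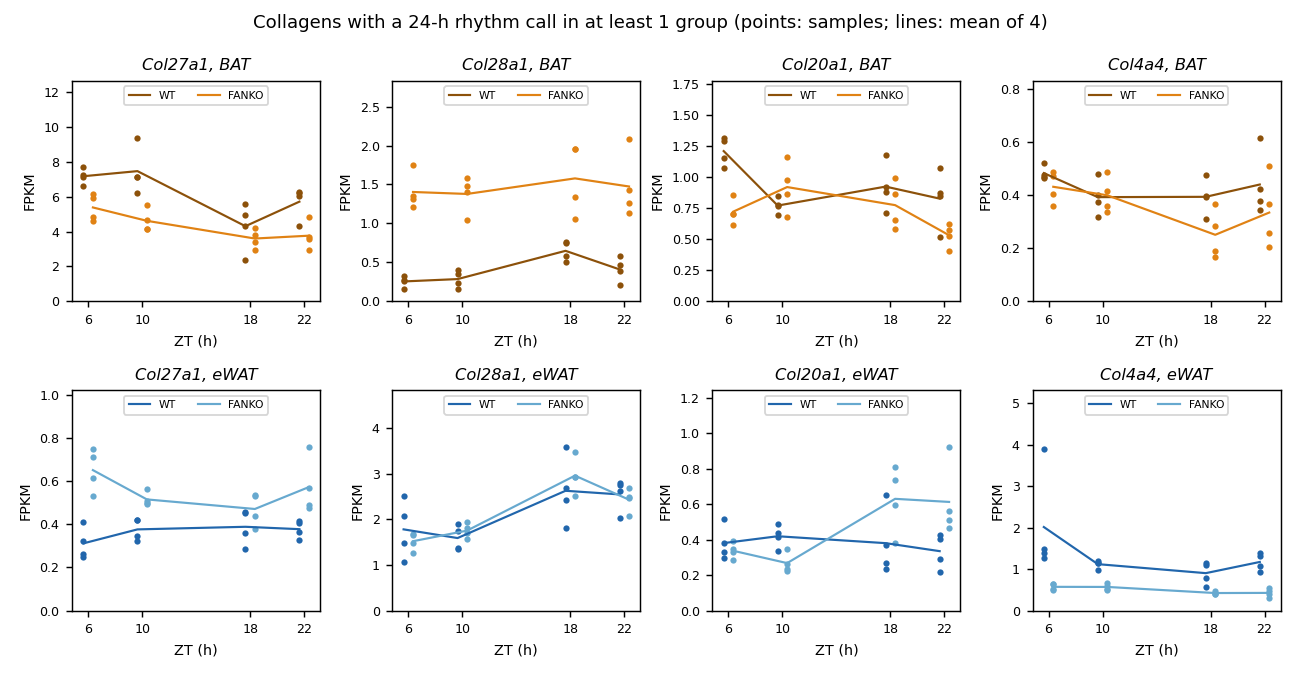
FPKM of *Col27a1*, *Col28a1*, *Col20a1* and *Col4a4* at ZT 6, 10, 18 and 22 in BAT (upper row) and eWAT (lower row); points are samples and lines join the means of 4. *Col28a1* in eWAT is highest at ZT 18 in both genotypes, and 1 WT eWAT sample of *Col4a4* at ZT 6 lies at 3.90.

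Genes that act on collagen were taken from lists of enzymes, partners and receptors. Chain modification and folding begins in the endoplasmic reticulum, with prolyl and lysyl hydroxylases, glycosyltransferases and the chaperone *Serpinh1*. The counts of the lists are to be read against the shares of all genes called, 33.1% higher and 33.9% lower in BAT and 27.6% and 22.8% in eWAT. Of 16 tested genes of the first list, 10 were higher in FANKO BAT, 4 lower and 2 not called, and 3 were higher, 5 lower and 8 not called in FANKO eWAT, where both shares are near those of all genes. In BAT, *P3h2* and *Fkbp10* rose (1.18 ± 0.13 and 0.97 ± 0.10) and *Colgalt2* fell (-1.05 ± 0.12). In eWAT the prolyl hydroxylase gene *P4ha1* rose (0.47 ± 0.08, not called with library size alone) while the chaperone gene *Fkbp10* fell (-0.62 ± 0.09), with edgeR adjusted p values of 2.09e-06 and 1.31e-08.

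Export of procollagen and removal of its propeptides had 6 of 12 genes higher and 2 lower in FANKO BAT, and 2 higher and 9 lower in FANKO eWAT. *Pcolce*, the enhancer of the C-propeptide protease, rose in BAT (1.32 ± 0.09), and *Adamts2*, which removes N-propeptides, fell in eWAT (-1.39 ± 0.11). All 5 tested crosslinking enzymes fell in eWAT, and in BAT 4 rose and *Lox* fell (-0.48 ± 0.09, edgeR adjusted p = 3.37e-06, but 0.098 with library size alone). *Loxl3* had the largest increase of the list in BAT (2.34 ± 0.08), and *Lox* the largest decrease in eWAT (-1.25 ± 0.09). All 7 proteoglycans that coat fibrils fell in eWAT, led by *Prelp* (-1.94 ± 0.12) and *Ogn* (-1.12 ± 0.07), and in BAT 4 rose, *Bgn* the most (1.95 ± 0.10), and *Prelp* fell (-1.35 ± 0.12).

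Collagen degradation and its inhibitors had 7 of 10 tested genes higher and 1 lower in FANKO BAT, and 1 higher and 7 lower in FANKO eWAT. *Timp1*, an inhibitor of matrix metalloproteinases, rose in BAT (4.78 ± 0.25), as did the membrane-bound collagenase *Mmp14* (2.69 ± 0.10), and *Timp4* fell in both depots (-1.60 ± 0.12 and -1.44 ± 0.11). Of 9 tested collagen receptors and uptake genes, 6 were higher and 1 lower in BAT and 1 higher and 4 lower in eWAT. The collagen-binding immune receptor *Lair1* rose in both (4.55 ± 0.16 and 1.07 ± 0.13), *Itga1* fell in BAT (-1.04 ± 0.05), and *Itga11*, an integrin subunit of fibroblasts, fell in eWAT (-1.06 ± 0.11).

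Laminins, nidogens and perlecan share the basement membrane with type IV collagen. Among 10 basement membrane partners, 3 were higher, 2 lower and 5 not called in FANKO BAT, which is near the share of all genes (9 and 1 with library size alone), and 1 was higher and 8 lower in FANKO eWAT. The nidogen gene *Nid2* rose in BAT (0.84 ± 0.10) and fell in eWAT (-1.36 ± 0.09), and the laminin gene *Lamb1* fell in BAT (-1.21 ± 0.08). Of 12 genes of the TGF-beta axis, the main inducer of collagen synthesis in fibroblasts, 8 were higher and 2 lower in BAT, and 3 higher and 4 lower in eWAT. *Tgfb1* rose in BAT (1.98 ± 0.11), and its target gene *Ccn2* fell in eWAT (-1.17 ± 0.21, edgeR adjusted p = 3.72e-06).

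Markers of the cells that make collagen moved as well. All 8 markers of fibroblasts and adipocyte progenitors were higher in FANKO BAT, and in FANKO eWAT 7 were lower and 1 higher. Their summed level had a lowest, median and highest value of 51.9, 58.1 and 90.04 FPKM in WT BAT and 219, 290.3 and 388 in FANKO BAT, and 179, 243 and 333 in WT eWAT and 118, 143 and 248 in FANKO eWAT. *Ly6a*, which interferon also induces, made up most of the FANKO BAT sum (means of 24.9 and 219 FPKM in WT and FANKO BAT). The other 7 together had 27.6, 34.6 and 58.1 in WT BAT against 54.1, 69.5 and 91.1 in FANKO BAT, and 149, 207 and 296 in WT eWAT against 73.96, 86.2 and 109.6 in FANKO eWAT. Like the fibrillar collagens, they were higher in FANKO than in WT BAT and lower in FANKO than in WT eWAT. FANKO BAT had less of them than FANKO eWAT, whereas the fibrillar sums were 225 ± 48.2 in FANKO BAT and 214 ± 25.9 in FANKO eWAT. Their part in the collagen levels was not tested.

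Macrophage markers rose in FANKO BAT, with 6 of 6 higher and summed levels of 33.6 to 66.6 FPKM in WT and 245 to 627 in FANKO. In eWAT 2 of 6 were higher and 4 not called (219.7 to 361 and 219.9 to 403). Mesothelial cells, which cover eWAT and make type IV collagen, had all 6 markers lower in FANKO eWAT (51.3 to 152 in WT and 51.3 to 77.1 in FANKO), and in BAT, where 1 was lower and 5 were not called, the sum was at most 3.34 FPKM, with *Msln*, *Upk3b*, *Wt1* and *Upk1b* near 0. Mural markers had 2 of 7 lower in BAT (139 to 177 and 60.4 to 98.8) and 5 lower and 1 higher in eWAT (93.004 to 175 and 92.4 to 140.4). *Rgs5* made up most of the mural sum in BAT (114 and 48.5 FPKM in the means), and the other 6 together ran from 31.2 to 49.02 in WT BAT and from 24.5 to 47.5 in FANKO BAT. Endothelial markers had 4 of 6 lower in BAT (79.2 to 115 and 57.1 to 91.3) and 1 of 6 lower in eWAT (102 to 138 and 83.97 to 141). These counts depend on the scaling. With library size alone, endothelial markers had 1 higher and 0 lower in BAT and 4 lower in eWAT. Mural markers then had 4 higher and 2 lower in BAT, and macrophage markers 1 higher and 3 lower in eWAT. The part of these cells in the collagen levels was not tested.

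Adipocyte markers were lower in FANKO BAT, 6 of 6, with sums of 3313 to 4641 FPKM in WT and 1487 to 2707 in FANKO, and in eWAT 2 were higher and 3 lower (3870 to 6763 and 4005 to 5944). Brown adipocyte markers had 3 of 6 lower in BAT (5147 to 9265 and 1093 to 2764) and 2 higher and 1 lower in eWAT (12.1 to 43.4 and 52.3 to 137). White adipocyte markers had 1 of 4 higher and 1 lower in BAT (5.95 to 64.01 and 7.61 to 34.7) and 1 higher and 2 lower in eWAT (231 to 884 and 135 to 258). Schwann cell markers, which touch on *Col28a1*, had 3 of 5 higher in BAT (6.29 to 14.05 and 8.92 to 15.8) and 1 higher in eWAT (4.66 to 7.85 and 4.9496 to 9.77). Skeletal muscle markers varied between libraries, from 0.287 to 155 FPKM in WT BAT and 1.93 to 147 in FANKO BAT, and from 3.56 to 54.2 in WT eWAT and 16.1 to 74.6 in FANKO eWAT, where 1 of 6 was higher. Epididymis markers reached 18.2 FPKM in WT eWAT and 29.9 in FANKO eWAT, with 0 of 4 tested called by edgeR in either depot. With library size alone, 4 of 6 adipocyte markers were lower in BAT. Brown adipocyte markers then had 1 higher and 3 lower in BAT, and 2 and 2 in eWAT. White adipocyte markers had 1 and 0 in BAT, and 1 and 3 in eWAT. Schwann cell markers had 4 higher in BAT, and 0 higher and 2 lower in eWAT.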

How the data were processed

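RNA of 64 mouse samples was analysed (16 groups of 4). Per the labels and the study's methods, total RNA was made into stranded libraries after Ribo-Zero depletion, sequenced as 38-bp paired-end reads and aligned with STAR 2.5.3a to GRCm38.p5 with GENCODE annotation. FastQC 0.11.5, MultiQC 1.2 and featureCounts 1.5.3 are named in the processing notes. The authors deposited unnormalized counts per gene, 1 column per sample. The strand and multi-mapping settings of the counting are not given in the sources used here, so exons shared with a neighbor or with an antisense gene are uncertain.

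Counts were analysed as deposited (R 4.3.3, edgeR 4.0.16). filterByExpr (minimum count 10, minimum total 15) left 20249 of 52636 genes. Libraries were scaled by TMM, and all samples entered 1 quasi-likelihood model, in which every combination of depot and genotype had its own level, cosine and sine term (24 h; 52 residual degrees of freedom). P values were adjusted by Benjamini-Hochberg over all genes tested and compared with 0.01. The standard error is the log2 change divided by the square root of F. Levels are TMM-scaled CPM per kilobase of exon union (FPKM, GENCODE M21), and sums cover all genes of a class or list. Amplitudes used log2 CPM with a prior count of 2. Symbols were found for 52489 identifiers. Figures used Python 3.11.15, pandas 2.3.3, numpy 2.4.6 and matplotlib 3.10.9, and exact intervals scipy 1.17.1.

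The members, classes, pathway lists and marker lists were chosen with earlier results of these data known. Any collagen could be named. Values per group were planned for the 12 most abundant and for the 4 largest calls in each direction of each comparison, up to 6 rhythm calls per group by p, and up to 2 genes per direction for a pathway list and depot. The separate sums for *Ly6a* and the ratios for low counts were added after the values were seen. On simulated counts (19468 genes in that step), the model found 78.5% of 200 genes with a 2-fold change in BAT, calling 1 of 19077 unchanged genes, and 86% of 200 rhythms of 1 log2 from mean to peak in WT eWAT, calling 3. Most genes were left unchanged in that step, whereas in the data 33.1% were called higher and 33.9% lower in BAT. The rate of wrong calls with that many changed genes was not tested.

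The labels number replicates 1 to 4 in each group and do not say whether a number marks an animal, so p values measure the spread between these samples. Same-numbered BAT and eWAT samples of a genotype and time had correlated deviations from their group means of -0.133 to 0.306 (median 0.053, 10 of 32 above 0.1), and the numbers were not taken as pairs. Alternatives were RLE factors (limma 3.58.1 and DESeq2 1.42.0 were also run as tests), library size alone, removal of mitochondrial genome genes, 2 other filters, time as a factor, separate fits per depot, replicate blocks, an FDR of 0.05, and leaving out each replicate number. Removal of WT ZT 18 replicate 4, and of 15 libraries rich in muscle or epididymis markers, and class sums with the longest transcript were added after seeing the data.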

Additional observations from a re-analysis of the deposited data

Results flagged for a closer look

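In sums over a class, the extreme sample of 4 lay far from the others, by Dixon's criterion, in 4 of the 112 groups tested (7 classes in 16 groups), where chance gives about 1 in 20. The fibrillar sum of FANKO eWAT at ZT 22 was 255.9 FPKM in replicate 2, against 212.4 in the next sample. The type VI sum of FANKO BAT at ZT 18 was 84.7 FPKM in replicate 4, against 56.2. The FACIT sum of WT eWAT at ZT 22 was 17.4 FPKM in replicate 1, against 23.3, and the multiplexin sum of WT eWAT at ZT 10 was 126 FPKM in replicate 4, against 99.7.

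For 32 collagens the genotype effect differed between the depots by a test of the difference in the same edgeR model. Values are the BAT effect minus the eWAT effect on the log2 scale. Among fibrillar collagens these were *Col1a1* (2.45), *Col1a2* (2.43), *Col3a1* (2.52), *Col5a1* (2.34), *Col5a2* (2.34), *Col5a3* (2.27), *Col11a2* (-1.65) and *Col27a1* (-1.10). For type IV they were *Col4a1* (0.74), *Col4a2* (0.60), *Col4a4* (1.04) and *Col4a6* (0.70), and for type VI *Col6a1* (2.14), *Col6a2* (2.37), *Col6a3* (2.12), *Col6a4* (4.38) and *Col6a5* (2.86). For FACIT collagens they were *Col9a3* (1.42), *Col12a1* (-0.92), *Col14a1* (2.24), *Col16a1* (3.00), *Col20a1* (-0.58) and *Col22a1* (4.40), of which *Col22a1* rests on 2 counts in WT BAT and *Col6a4* on 4. The others were *Col7a1* (-0.73), *Col8a1* (1.22), *Col8a2* (3.68), *Col10a1* (0.42), *Col15a1* (2.53), *Col17a1* (1.53), *Col18a1* (2.34), *Col23a1* (0.87) and *Col28a1* (1.93).

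The rhythm of *Col20a1* differed between WT and FANKO in eWAT (edgeR adjusted p = 0.00948), with an adjusted p from 0.0023 to 0.184 over the alternatives.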

How the results depend on the processing

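Of 180 results on the mean level of a member, 145 kept direction and call under every alternative run. The reversals came with library size alone, which moved FANKO against WT in BAT for *Col4a1* to 0.55, *Col4a2* to 0.49, *Col10a1* to 0.58, *Col12a1* to 0.076, *Col20a1* to 0.24, *Col23a1* to 0.20 and *Col27a1* to 0.10, BAT against eWAT in WT for *Col10a1* to -0.62, and the difference of the genotype effects for *Col7a1* to 0.11 and *Col20a1* to 0.27. It left 2 members lower in BAT and 1 with a lower genotype effect in BAT than in eWAT; the latter count was 3 without libraries rich in muscle or epididymis markers.

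With each replicate number left out in turn, FANKO against WT gave 21 to 22 higher and 4 to 7 lower members in BAT (4 without replicate 3) and 4 to 5 higher and 24 to 25 lower in eWAT. The depots gave 6 higher and 27 lower in WT, and 12 to 15 higher and 12 to 14 lower in FANKO. The genotype effect was higher in BAT for 25 to 27 and lower for 3 to 5 (3 without replicate 3 or 4). The fit with a replicate block gave 21 higher and 7 lower members in BAT and 5 and 25 in eWAT, as without it. With a replicate block of same-numbered BAT and eWAT samples the counts were 14 and 13 for the depots in FANKO and 27 and 6 for the difference of the genotype effects. Samples correlated best with their own number in the other depot in 38 of 64 cases, where 16 would if each number were as likely. This is a hint from the data, not from the design, and it cannot show that the depots share mice. Same-numbered WT and FANKO samples of a depot and time, which are different mice, had a median correlation of 0.0517 (-0.0196 for other numbers). For BAT and eWAT samples of a genotype and time the medians were 0.0527 and -0.0214. What a number marks was not tested.

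Rhythm calls were less stable. At an FDR of 0.05 they were 4 in WT BAT, 1 in FANKO BAT and 7 in WT eWAT, with rhythm differences of 2 in BAT and 3 in eWAT. Limma-voom gave 1 in WT BAT, DESeq2 a difference of 1 in BAT, and a separate fit per depot 2 in WT eWAT. Without single replicate numbers, or WT ZT 18 replicate 4, the calls ranged from 1 to 3 in WT BAT, 0 to 2 in FANKO BAT, 0 to 3 in WT eWAT, 1 to 2 in FANKO eWAT, and 0 to 1 and 0 to 2 for the differences in BAT and eWAT. Those without WT ZT 18 replicate 4 were 2 in FANKO BAT, 2 in WT eWAT, and 1 and 2 for the differences. Without libraries rich in muscle or epididymis markers, FANKO eWAT had 1. The *Col20a1* difference in eWAT became 0 with library size alone, without a filter, with time as a factor, with separate fits, with limma-voom, without any 1 replicate number and without those libraries. The cause was not tested, beyond the smaller number of samples where libraries were left out.

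Depth limits *Col6a4*, *Col22a1*, *Col8a2* and *Col6a5* in WT BAT, where 4, 2, 41 and 57 counts were found in 16 libraries, and 8 members could not be tested. With 4 time points, peak and amplitude are coarse.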
